A study of Mus musculus with 16 samples.

Results

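The interferon response was followed through 9 genes, the chemokine gene Cxcl10, the GTPase genes Irgm1 and Gbp2, the transcription factor genes Irf1, Irf5 and Irf7, and the antiviral genes Ifit1, Ifit3 and Isg15, in cells sorted as sensory neurons from 4 kinds of mouse ganglion. Their rows were taken by symbol from the deposited counts, 9 of 22609 gene symbols, and all 9 passed the filter on low counts in each of the 6 pairs of ganglia. They were chosen by their CPM levels in these 16 libraries, which were known from earlier results, so their levels and fold changes are given as a description, without a test.

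RNA-seq was performed on TG (trigeminal ganglion), NG/JG (nodose and jugular ganglion complex), L3-L5 DRG (lumbar dorsal root ganglia) and T10-L1 DRG (thoracolumbar dorsal root ganglia), with 4 libraries each and 16 in all. The animals were naive young adult C57BL/6J males given as Pirt/TdTomato, a reporter in which Cre driven by the sensory neuron gene Pirt switches on the red protein TdTomato, and all groups carried both alleles. Cells with medium to bright TdTomato were taken in 2 cycles of sorting from ganglia of both sides, and their cDNA was made with oligo dT and SMART-seq2. Whether a library held 1 animal or several is not given in the sources used here, so the p-values below measure the spread between libraries.

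Libraries had 4735624 to 13333318 reads on genes, and levels are given as CPM, the count divided by the reads on genes of that library and scaled to 1000000 reads. The NG/JG libraries had reads on 10132 to 13029 genes and those of the other ganglia on 11527 to 18571. All 10 sensory neuron markers examined had reads in all 16 libraries, with a summed level of 1143 to 13725 CPM, while 10 satellite glia and Schwann cell markers summed to 10603 to 66481 CPM. The animals are labelled male, yet all 16 libraries had 1279 to 8362 reads on Xist and none had a read on the 7 genes of chromosome Y examined. No library was left out for this. In these bulk samples, fewer cells of a type and less RNA per cell cannot be told apart.

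Interferons are secreted proteins that warn cells of infection. Type I interferons bind the receptor subunits encoded by Ifnar1 and Ifnar2, interferon gamma binds those of Ifngr1 and Ifngr2, and the JAK kinases then activate STAT proteins, which enter the nucleus and switch on interferon-stimulated genes. DNA elements near these genes serve this, the interferon-stimulated response element, ISRE, bound by STAT and IRF proteins, and the gamma-activated site, GAS, bound by STAT pairs.

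The promoters are shown because several of these genes share such elements. All 9 genes were matched to RefSeq promoters on build GRCm38.p6, and the 250 bases before the start are printed 5′ to 3′ for 5 of them, with matches to ISRE (GAAA, any 2 bases and GAAA, on either strand) or GAS (TTCNNNGAA, the same on both strands) in capitals. The promoter of Irgm1 is at chr11:48871421-48871670 on the minus strand, that of Isg15 at chr4:156200819-156201068 on the minus strand, that of Ifit1 at chr19:34640639-34640888 on the plus strand, that of Cxcl10 at chr5:92348890-92349139 on the minus strand and the first of 2 listed for Irf1 at chr11:53769764-53770013 on the plus strand.
Irgm1: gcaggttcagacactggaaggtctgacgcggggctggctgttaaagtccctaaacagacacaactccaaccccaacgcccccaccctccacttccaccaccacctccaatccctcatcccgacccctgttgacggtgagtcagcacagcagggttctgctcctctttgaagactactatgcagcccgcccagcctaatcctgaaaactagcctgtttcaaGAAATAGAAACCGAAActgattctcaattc
Isg15: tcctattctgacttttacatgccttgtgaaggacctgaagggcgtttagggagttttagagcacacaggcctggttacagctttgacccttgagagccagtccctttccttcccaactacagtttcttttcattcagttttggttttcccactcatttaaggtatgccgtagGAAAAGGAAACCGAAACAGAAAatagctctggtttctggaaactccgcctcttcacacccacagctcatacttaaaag
Ifit1: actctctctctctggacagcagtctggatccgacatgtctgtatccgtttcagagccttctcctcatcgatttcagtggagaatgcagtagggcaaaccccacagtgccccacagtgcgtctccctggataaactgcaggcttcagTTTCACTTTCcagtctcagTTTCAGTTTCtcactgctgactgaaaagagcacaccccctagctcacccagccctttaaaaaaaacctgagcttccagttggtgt
Cxcl10: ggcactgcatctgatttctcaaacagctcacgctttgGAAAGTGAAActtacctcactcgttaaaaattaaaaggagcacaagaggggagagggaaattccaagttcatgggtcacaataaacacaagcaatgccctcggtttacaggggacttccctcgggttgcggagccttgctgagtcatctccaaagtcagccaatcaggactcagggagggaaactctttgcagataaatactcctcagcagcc
Irf1: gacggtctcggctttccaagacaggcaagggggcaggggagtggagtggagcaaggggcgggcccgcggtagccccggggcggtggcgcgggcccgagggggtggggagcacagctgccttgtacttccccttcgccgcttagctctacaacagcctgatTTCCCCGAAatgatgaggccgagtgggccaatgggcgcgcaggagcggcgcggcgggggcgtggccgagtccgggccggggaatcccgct

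ISRE letters were found in 6 of the 9 genes (Cxcl10, Irgm1, Ifit1, Ifit3, Isg15 and Gbp2), and in 2.98% of 32851 promoters of the same length in the table. Isg15 held 3 overlapping matches that began 78, 72 and 66 bases before the start, and Irgm1 held 2 overlapping matches, the first 30 bases before it. Ifit1 had matches at 104 and 85 bases and Ifit3 at 156 and 122 bases, with the same letters in both genes, TTTCACTTTC and TTTCAGTTTC. The match of Cxcl10 lay 213 bases and that of Gbp2 59 bases before the start. GAS letters were found in Irf1 only among the 9, 90 bases before the start, and in 7.02% of all promoters. The NF-κB motif was found in Cxcl10 and Irf1 and in 7.25% of all promoters. Irf5 and Irf7 had no match to any of the 3 motifs in this window. These are matches of letters, and binding was not measured.

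Compared per length of exon, Cxcl10 had the highest mean level over the 16 libraries, 144 RPKM (CPM per kilobase of exon), followed by Irf1 at 113 RPKM. Irgm1 had 50.2, Gbp2 45.3, Ifit1 33.8, Isg15 31.4 and Ifit3 29.1 RPKM. Irf7 and Irf5 were lowest, at 9.69 and 8.39 RPKM. NG/JG had the highest mean CPM for 8 of the 9 genes, all but Irf5, for which it had the lowest. Without NG/JG library 4 it had the highest mean for 5 of the 9, Irgm1, Irf1, Ifit1, Ifit3 and Isg15.

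**Figure D1:**
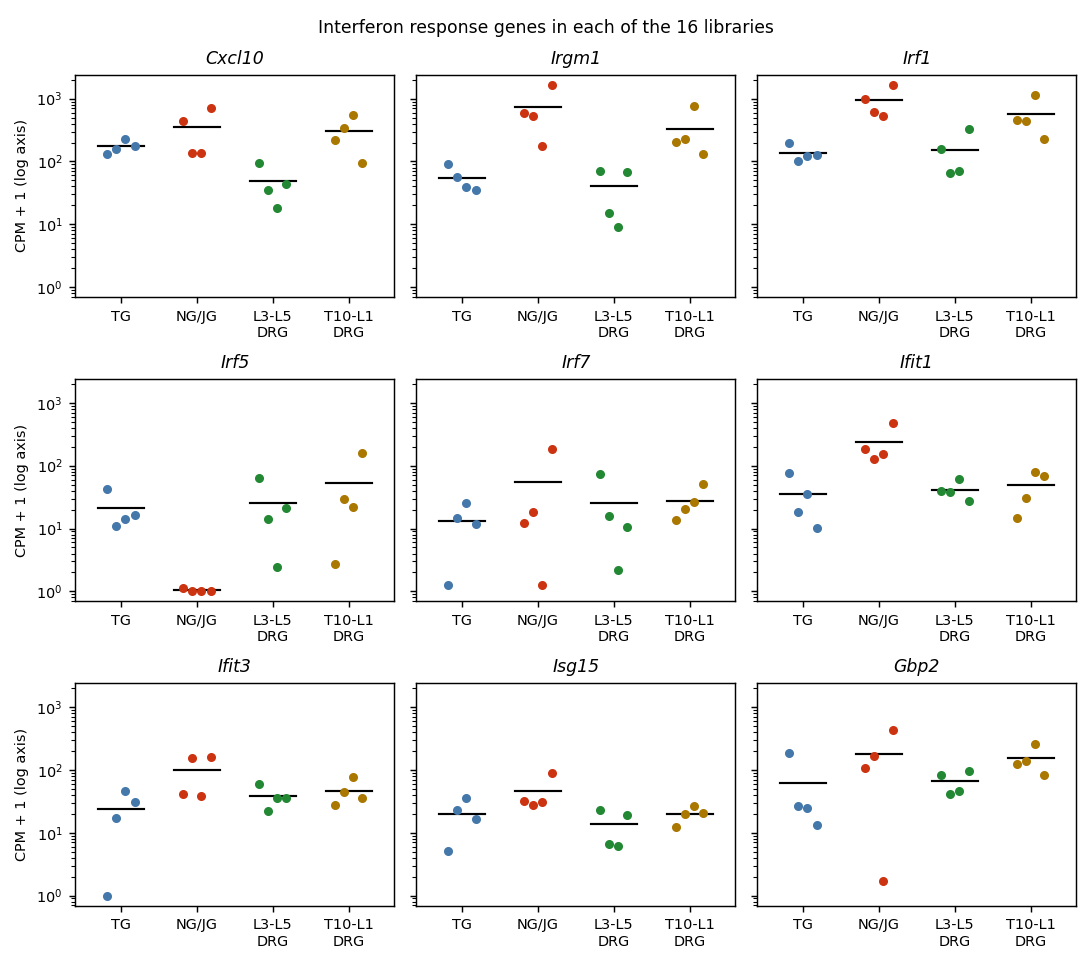
Level of each of the 9 interferon response genes in the 16 libraries, as CPM + 1 on a log axis, with 1 point per library and a line at the mean of the 4 libraries of a ganglion. Irgm1 and Irf1 lie highest in NG/JG and T10-L1 DRG, Ifit1 in NG/JG lies above all other libraries, and Irf5 in NG/JG lies at 0 to 1 counts.

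Irgm1 encodes an immunity-related GTPase that acts in defence against intracellular pathogens (chr11:48675470-48685185 on the minus strand of mm9). It was found at 596, 525, 174 and 1670 CPM in NG/JG libraries 1 to 4 and at 200, 227, 774 and 129 CPM in T10-L1 DRG. TG libraries had 89.5, 55.1, 38.7 and 33.9 CPM and L3-L5 DRG libraries 69.3, 13.9, 7.91 and 66.1 CPM. All 8 NG/JG and T10-L1 DRG libraries were thus above all 8 TG and L3-L5 DRG libraries, while NG/JG and T10-L1 DRG overlapped, as did TG and L3-L5 DRG. The means were 741 ± 646 CPM in NG/JG, 333 ± 297 in T10-L1 DRG, 54.3 ± 25.2 in TG and 39.3 ± 32.9 in L3-L5 DRG (SD, n = 4). The fitted difference was 21.9-fold between NG/JG and L3-L5 DRG (log2 fold change 4.46, standard error 0.95), 12.9-fold between NG/JG and TG, 8.96-fold between T10-L1 DRG and L3-L5 DRG and 4.89-fold between T10-L1 DRG and TG. Single libraries carried much of this: without NG/JG library 4 the first values were 11.8-fold and 6.84-fold, and without T10-L1 DRG library 3 the others were 4.96-fold and 2.68-fold.

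Irf1 encodes interferon regulatory factor 1, a transcription factor that is itself switched on by interferon gamma and by NF-κB (chr11:53583516-53591876 on the plus strand of mm9). It stood at 1003, 603, 521 and 1633 CPM in NG/JG and at 454, 447, 1131 and 228 CPM in T10-L1 DRG. TG had 199, 101, 123 and 126 CPM, and L3-L5 DRG had 155, 65.5, 68.8 and 324 CPM. NG/JG lay above TG and L3-L5 DRG without overlap and T10-L1 DRG lay above TG, while L3-L5 DRG library 4 reached into the range of T10-L1 DRG. Means were 940 ± 508 CPM in NG/JG, 565 ± 392 in T10-L1 DRG, 153 ± 121 in L3-L5 DRG and 137 ± 42.7 in TG (SD, n = 4). The log2 fold change was 2.81 (standard error 0.64) for NG/JG against L3-L5 DRG and -2.67 (standard error 0.47) for TG against NG/JG. The former was 3.45 without L3-L5 DRG library 4, and 2.31 at the lowest without 1 library. The latter ranged from -2.89 to -2.15 without 1 library. The order of the lower pair was not fixed, since TG stood above L3-L5 DRG when library sizes were scaled by TMM.

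Cxcl10 encodes a chemokine that draws T cells and natural killer cells through the receptor CXCR3 (chr5:92775664-92777915 on the minus strand of mm9). Its levels were 437, 136, 134 and 715 CPM in NG/JG and 221, 343, 548 and 94.2 CPM in T10-L1 DRG. TG libraries were close to each other, at 133, 160, 225 and 172 CPM, and L3-L5 DRG libraries had 94.9, 34.0, 16.9 and 42.4 CPM. L3-L5 DRG was thus lowest, below NG/JG and TG without overlap, and T10-L1 DRG library 4 was the only library of that ganglion within its range. The means of 355 ± 279 CPM in NG/JG, 301 ± 193 in T10-L1 DRG and 173 ± 38.9 in TG (SD, n = 4) differed by less than their spread, and that of L3-L5 DRG was 47.1 ± 33.6. The fitted difference from L3-L5 DRG was 8.65-fold in NG/JG, 6.64-fold in T10-L1 DRG and 4.88-fold in TG. That of NG/JG was 5.31-fold without NG/JG library 4 and 13.4-fold without L3-L5 DRG library 1. Of the exon length of Cxcl10, 8.75% is shared with Art3 on the other strand, and the strand setting of the counter is not given in the sources used here.

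Gbp2 encodes a guanylate-binding protein, an interferon-induced GTPase of another family (chr3:142283566-142300972 on the plus strand of mm9). It was measured at 125, 140, 259 and 81.9 CPM in T10-L1 DRG and at 80.5, 39.7, 45.6 and 95.7 CPM in L3-L5 DRG. NG/JG spread widely, at 106, 165, 0.69 and 438 CPM. TG library 1 had 184 CPM while the other 3 had 26.0, 23.9 and 12.1 CPM. All ganglia overlapped for this gene, and the mean of NG/JG, 177 CPM, and that of T10-L1 DRG, 151 CPM, were close beside spreads of that size.

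**Figure D2:**
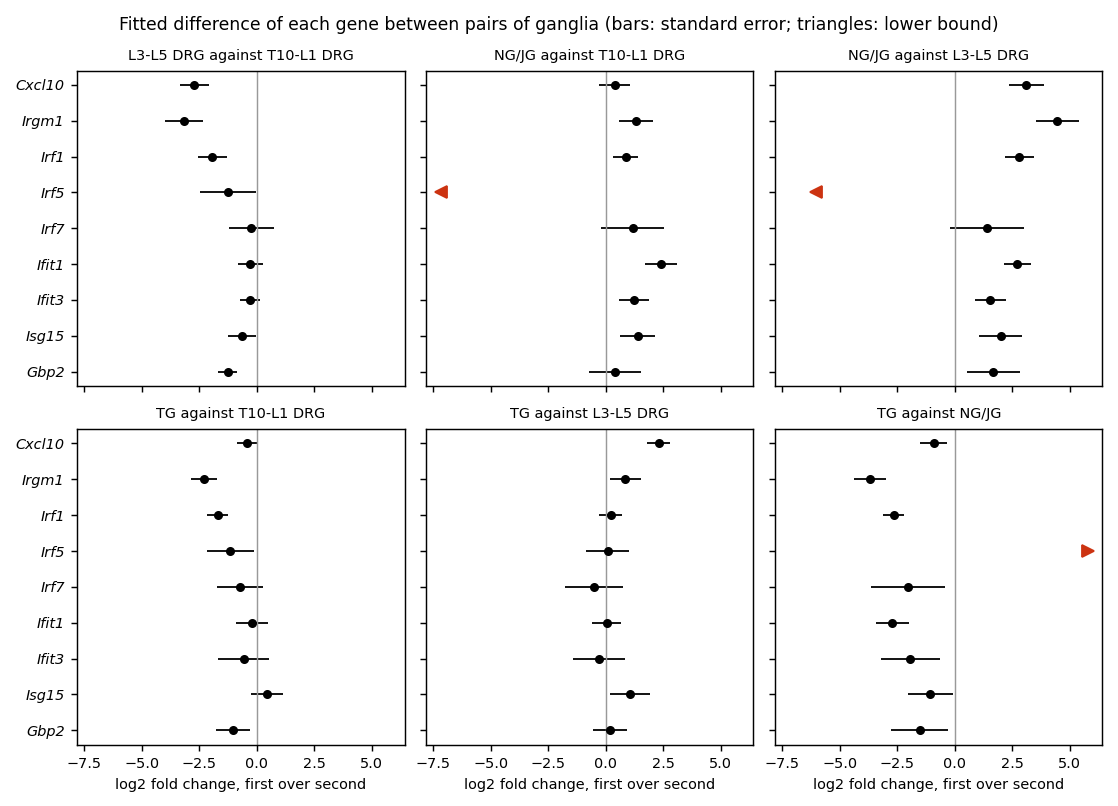
Fitted log2 fold change of each gene in the 6 pairs of ganglia, first over second, from edgeR. Bars are the standard error and triangles are lower bounds where NG/JG had 0 to 1 counts of Irf5. Irgm1 reaches 4.46 for NG/JG against L3-L5 DRG, and 8 of the 9 genes lie above 0 for NG/JG against L3-L5 DRG.

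Of the antiviral genes, Ifit1 encodes a protein that binds viral RNA lacking the host cap marks (chr19:34715361-34724499 on the plus strand of mm9), and was found at 182, 129, 151 and 482 CPM in NG/JG. The other ganglia had 76.9, 17.1, 34.2 and 9.31 CPM in TG, 39.2, 37.3, 60.2 and 26.0 CPM in L3-L5 DRG and 13.5, 29.3, 79.2 and 68.8 CPM in T10-L1 DRG. All 4 NG/JG libraries were above the other 12, and the other ganglia overlapped with each other. The mean of NG/JG was 236 ± 166 CPM (SD, n = 4), raised most by library 4, and the log2 fold change was 2.72 (standard error 0.58) against L3-L5 DRG and 2.41 (standard error 0.70) against T10-L1 DRG. Without NG/JG library 4 these were 1.99 and 1.69.

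Ifit3, a partner of Ifit1 on the same chromosome (chr19:34658021-34663221 on the plus strand of mm9), had 40.5, 152, 37.7 and 161 CPM in NG/JG. It had 26.9, 43.0, 74.8 and 34.8 CPM in T10-L1 DRG, 59.0, 21.1, 34.7 and 35.3 CPM in L3-L5 DRG and 0, 15.9, 45.0 and 29.5 CPM in TG. NG/JG libraries 2 and 4 were above all others, and libraries 1 and 3 were within the range of the remaining ganglia. A near-identical copy, I830012O16Rik, had 154 to 879 counts in NG/JG, and reads that fit both genes could have been left out or split by the counter, so the level of Ifit3 is uncertain.

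Isg15 encodes a ubiquitin-like protein that is joined to other proteins after interferon (chr4:155573533-155574927 on the minus strand of mm9). NG/JG had 31.4, 26.6, 30.1 and 89.7 CPM, above all T10-L1 DRG libraries (11.3, 18.6, 25.6 and 19.3 CPM) and all L3-L5 DRG libraries (21.7, 5.66, 5.11 and 18.4 CPM). TG, at 4.19, 21.8, 34.7 and 15.8 CPM, overlapped with every other ganglion. Without library 4, NG/JG still stood above both DRG groups, since its lowest library had 26.6 CPM against 25.6 CPM in the highest of T10-L1 DRG.

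Irf7, which encodes the factor that amplifies type I interferon production, was low in most libraries (chr7:148448605-148452380 on the minus strand of mm9). NG/JG had 11.1, 17.4, 0.28 and 185 CPM, L3-L5 DRG had 72.6, 14.9, 1.15 and 9.50 CPM, T10-L1 DRG had 12.8, 19.1, 25.0 and 50.6 CPM and TG had 0.25, 13.8, 24.6 and 10.7 CPM. All ganglia overlapped. The mean of NG/JG, 53.4 ± 87.9 CPM (SD, n = 4), rested on library 4.

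Irf5, which encodes a regulatory factor that acts below Toll-like receptors and is known for its role in macrophages, was lowest in NG/JG (chr6:29476625-29491869 on the plus strand of mm9). NG/JG libraries had 1, 0, 0 and 0 counts. TG had 42.3, 9.84, 13.2 and 15.6 CPM, L3-L5 DRG had 62.1, 13.0, 1.48 and 20.5 CPM and T10-L1 DRG had 1.68, 28.2, 21.0 and 161 CPM. NG/JG was thus below the other 12 libraries, which overlapped with each other. Set against the floor of 3 counts per library, the level exceeded that of NG/JG at least 143-fold in T10-L1 DRG, at least 65.4-fold in L3-L5 DRG and at least 54.6-fold in TG, and the floor covers counting error only. These limits were 45.7-fold without T10-L1 DRG library 4, 31.4-fold without L3-L5 DRG library 1 and 34.8-fold without TG library 1. Of the exon length of Irf5, 14.2% is shared with Tnpo3 on the other strand, which had 198 to 1421 counts in NG/JG.

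The libraries of a ganglion differed widely, and often the same library was high for many of the 9 genes. NG/JG library 4 had the highest level of its ganglion for 8 of them, T10-L1 DRG library 3 for 7, L3-L5 DRG library 1 for 6 and TG library 1 for 5, while TG library 1 was the lowest of its ganglion for the other 4, Cxcl10, Irf7, Ifit3 and Isg15. Across the 16 libraries Irgm1 and Irf1 moved together most closely, with Pearson r = 0.96 on the log2(CPM + 1) scale, and Irgm1 and Cxcl10 had r = 0.82. Each gene was also set against the mean of the other 8, and r ranged from -0.28 for Irf5 to 0.78 for Irgm1. The libraries share ganglion, depth and amplification, so these values are descriptions over 16 points.

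Markers of other processes and cells moved with some of these genes. A list of 12 immediate-early and dissociation response genes, such as Fos, Egr1 and Dusp1, which neurons and glia switch on within minutes of stimulation or tissue handling, had reads on all 12 genes in all 16 libraries. Its summed level ranged over the 4 libraries from 20504 to 48463 CPM for NG/JG, from 17438 to 36573 CPM for T10-L1 DRG, from 10152 to 24545 CPM for TG and from 3156 to 18165 CPM for L3-L5 DRG. NG/JG library 4 and T10-L1 DRG library 3 had the highest sums of their ganglia, and TG library 1 had 24545 CPM against 10152 to 11135 CPM in the other 3. In L3-L5 DRG, library 1, highest for 6 of the 9 genes, had 13826 CPM, below library 4 at 18165 CPM.

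Set against the mean log2(CPM + 1) of that list, Irgm1 had r = 0.95 (Spearman's rho 0.98) over the 16 libraries, Irf1 r = 0.91 (rho 0.95) and Cxcl10 r = 0.75 (rho 0.67). Without the 2 libraries farthest from the median of the list, L3-L5 DRG 2 and 3, r was 0.94 for Irgm1, 0.93 for Irf1 and 0.46 for Cxcl10. With the mean of each ganglion taken out, r was 0.89 for Irgm1, 0.83 for Irf1 and 0.53 for Cxcl10. Isg15, Ifit1 and Gbp2 had r = 0.61, 0.48 and 0.47 (rho 0.45, 0.56 and 0.80). Irf7 and Ifit3 followed the list less closely, at r = 0.33 and 0.26 (rho 0.29 and 0.54), and Irf5 had r = -0.16 (rho -0.19). The part of this list in the levels of the interferon response genes was not tested.

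Macrophage markers, 13 genes such as Csf1r, C1qa and Cx3cr1, ranged in their sum from 3417 to 12286 CPM for TG, from 47.8 to 4868 CPM for NG/JG, from 87.7 to 8736 CPM for L3-L5 DRG and from 1197 to 20489 CPM for T10-L1 DRG. Irf5 had r = 0.69 with their mean (rho 0.66), 0.73 without NG/JG 3 and L3-L5 DRG 2, and 0.59 with the mean of each ganglion taken out. Its highest library, T10-L1 DRG library 4, also had the highest macrophage sum. The same library had the highest sums of 6 fibroblast markers (12740 CPM), 10 lymphocyte markers (44.4 CPM) and 9 neutrophil markers (619 CPM). Irf5 had r = 0.63 with the fibroblast list (rho 0.72, 0.59 with the mean of each ganglion taken out) and r = 0.62 with the lymphocyte list (rho 0.66), and the part of each list was not tested. NG/JG library 1 was unlike the rest, with 4868 CPM of macrophage markers and 1 count of Irf5. For Irgm1 and Irf1, r with the macrophage list was -0.04 and -0.13 (0.34 and 0.24 with the mean of each ganglion taken out). With the fibroblast list r was 0.28 and 0.18 (0.70 and 0.51 with the mean of each ganglion taken out). Lymphocyte markers reached at most 44.4 CPM in any library, and in NG/JG 8 of 10 were at 0 in all 4 libraries and the sum was at most 0.139 CPM.

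**Figure D3:**
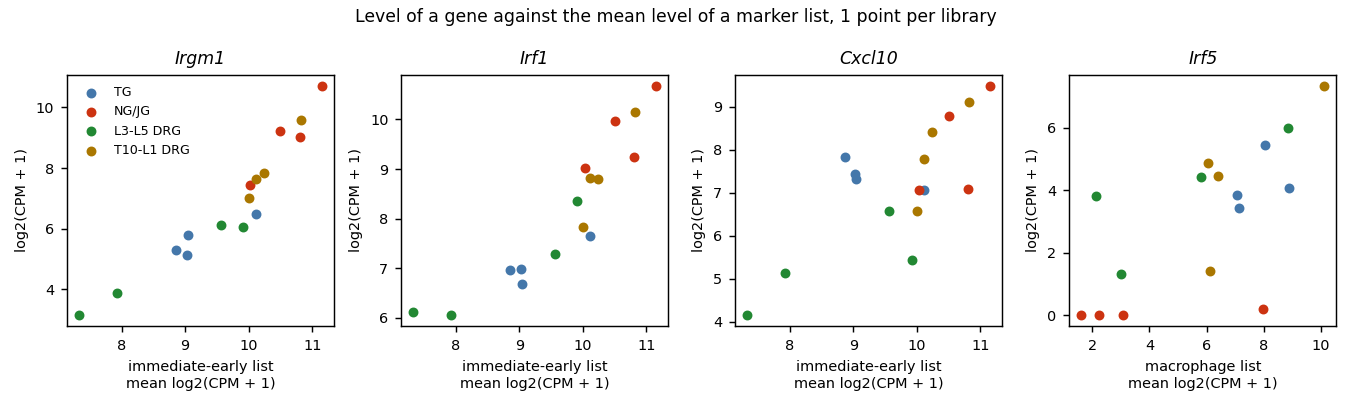
Level of Irgm1, Irf1 and Cxcl10 against the mean of the immediate-early list, and of Irf5 against the mean of the macrophage list, both as log2(CPM + 1), with 1 point per library coloured by ganglion. Irgm1 and Irf1 follow the list in all 4 ganglia (r = 0.95 and 0.91), Cxcl10 is looser (r = 0.75), and the 4 NG/JG libraries lie at the bottom of the Irf5 panel.

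By the rule fixed for likeness, the 5 genes of 11822 whose log2(CPM + 1) over the 16 libraries was most like the mean of the 9 were Trib1 (r = 0.90), which encodes a pseudokinase, Klf6 (0.88), a zinc finger transcription factor gene, Emp1 (0.87), a membrane protein gene, Phlda1 (0.86) and Marcksl1 (0.86). Trib1 averaged 173 CPM in NG/JG, 150 in T10-L1 DRG, 40.5 in L3-L5 DRG and 33.3 in TG. None of the 5 was on an interferon list.

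The number of the 9 genes whose libraries did not overlap was counted for each pair of ganglia and is given beside the share of all genes tested, with nothing read from it. It was 6 for NG/JG against L3-L5 DRG (7.34% of 12240 genes), 4 for TG against NG/JG (9.63%), 3 for NG/JG against T10-L1 DRG (8.04%), 2 for TG against T10-L1 DRG (18.5%), 1 for L3-L5 DRG against T10-L1 DRG (3.7%) and 1 for TG against L3-L5 DRG (15.9%).

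The genes around them in the pathway were then examined, in 8 lists of 133 genes that held none of the 9, from ligands to targets. These were tested with edgeR's quasi-likelihood test with Benjamini-Hochberg adjustment over all genes. The lists were written with earlier results of these data known.

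Of the 18 interferon ligand genes, none passed the filter on low counts. Ifng, which encodes interferon gamma, was at 0 in all 16 libraries, and NG/JG had no read on any of the 18. Ifnb1, which encodes interferon beta, had reads in 3 libraries, the most in T10-L1 DRG library 4 with 45 counts. With 0 counts, the floor of 3 counts stands for 0.225 to 0.633 CPM, so lower levels were not detectable at this depth.

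The receptor and JAK-STAT genes were found in every ganglion except Il28ra, the receptor gene for type III interferons, which had at most 4 counts in any library. Ifnar1 averaged 84.8 to 164 CPM over the 4 ganglia, Ifnar2 64.4 to 124, Ifngr1 93.7 to 247, Ifngr2 61.3 to 101 and Il10rb 76.4 to 173 CPM. Of the kinases, Jak1 averaged 122 to 341 CPM, Jak2 12.6 to 22.3 and Tyk2 27.9 to 37.2 CPM. Stat2 averaged 26.6 to 147 and Irf9 30.6 to 83.2 CPM. NG/JG library 4, highest for 8 of the 9 response genes, had 3 counts of Ifnar1, 2 of Jak2, 1 of Tyk2 and 2 of Irf9, where no other library had 3 or fewer counts of these, and it had reads on the fewest genes of all libraries, 10132.

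None of the 11 receptor and JAK-STAT genes tested passed the adjusted threshold in any pair of ganglia. At an unadjusted p under 0.05, Jak1 was higher in NG/JG, at 341 ± 77.6 CPM, than in TG, at 122 ± 44.7 CPM (SD, n = 4; log2 fold change -1.34 for TG against NG/JG, adjusted p = 0.198). Stat2 was lower in TG than in each other ganglion (log2 fold change -2.38 against NG/JG, -1.50 against L3-L5 DRG and -1.35 against T10-L1 DRG, with adjusted p = 0.212, 0.0961 and 0.0902), and DESeq2 called it in all 3 pairs. Ifnar2 was higher in TG than in L3-L5 DRG (log2 fold change 1.36, adjusted p = 0.13). Among the other regulatory factor genes, Irf3 was higher in TG than in L3-L5 DRG and T10-L1 DRG at an unadjusted p under 0.05 (log2 fold change 0.80 and 0.84, adjusted p = 0.272 and 0.153). Irf2 averaged 19.9 to 31.3 CPM over the ganglia and Irf8, a factor of macrophages and B cells, 21.3 to 62.5 CPM. Irf4 averaged 0.626 to 7.95 CPM. Irf4 and Irf8 each had libraries at 3 counts or fewer.

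In TG against T10-L1 DRG, 7 of 106 pathway genes tested passed the adjusted threshold, 6.6%, where 5.87% of all 12914 genes did (4.33% higher in TG and 1.54% higher in T10-L1 DRG). The 4 that were higher in TG were Xaf1, which promotes cell death, Ifi35, and Psmb8 and Psme1, which encode parts of the immunoproteasome and its activator. Xaf1 had 67.5, 156, 140 and 90.1 CPM in TG against 35.5, 34.2, 47.3 and 40.5 CPM in T10-L1 DRG, without overlap (log2 fold change 1.92, standard error 0.39, adjusted p = 0.0283). Ifi35 averaged 125 ± 31.4 against 53.1 ± 18.9 CPM (adjusted p = 0.0371), Psmb8 263 ± 96.4 against 112 ± 28.1 CPM (adjusted p = 0.0446) and Psme1 145 ± 26.8 against 79.9 ± 19.04 CPM (adjusted p = 0.0448; SD, n = 4).

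The 3 that were higher in T10-L1 DRG were Ifih1, the gene of the double-stranded RNA sensor MDA5, Tbk1, the gene of a kinase that activates IRF3, and Gbp9. Ifih1 had 44.6, 62.3, 57.5 and 68.9 CPM in T10-L1 DRG against 14.0, 10.03, 13.7 and 5.09 CPM in TG, without overlap (log2 fold change of TG over T10-L1 DRG -2.10 with a standard error of 0.48, adjusted p = 0.0369). Tbk1 averaged 53.6 ± 15.5 against 11.3 ± 0.725 CPM (adjusted p = 0.0428) and Gbp9 11.6 ± 8.88 against 0.509 ± 0.222 CPM (adjusted p = 0.0463; SD, n = 4), with 2 to 4 counts of Gbp9 in TG libraries. Without TG library 1 the test called 30 pathway genes, these 7 among them, and without any other single library of the pair it called 0. It also called 0 with the replicate number as a block and with all 16 libraries in one fit. No share of all genes is given for these fits, so nothing about the pathway is read from the 30. DESeq2 called 20, of which 8 were higher in TG and 12 in T10-L1 DRG (15.4% of all genes). With edgeR, 27 had an unadjusted p under 0.05 (21.6% of all genes), 11 higher in TG (12.9%) and 16 in T10-L1 DRG (8.78%).

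**Figure D4:**
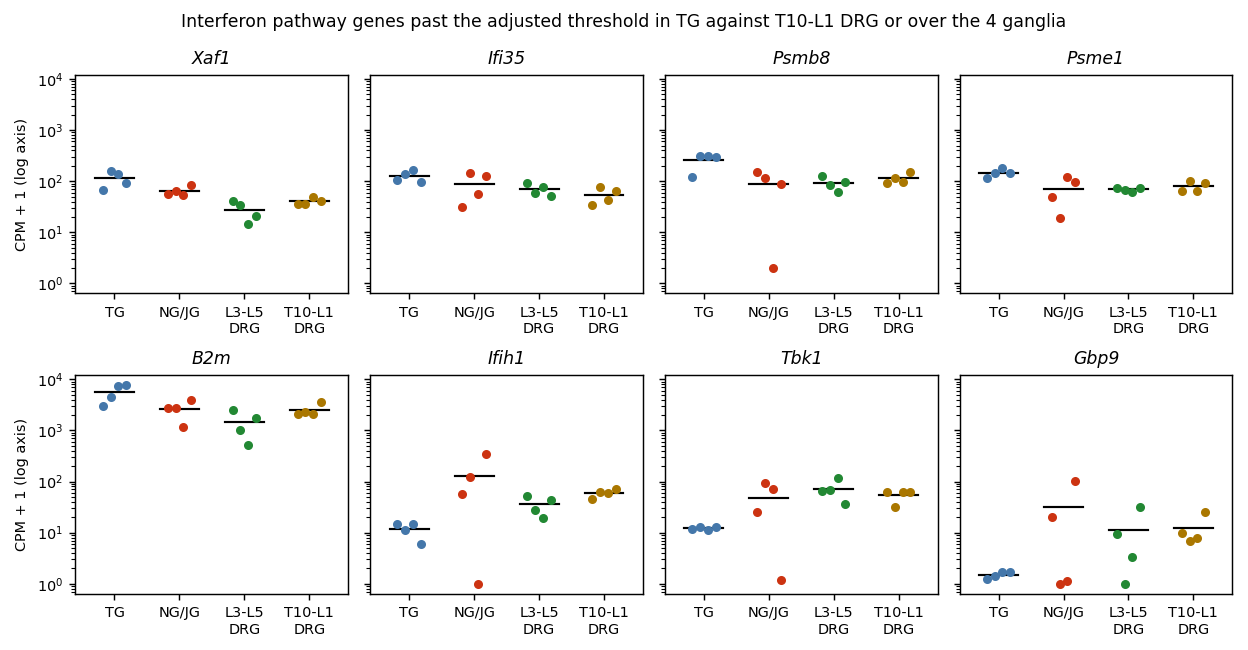
Level of the 7 pathway genes that passed the adjusted threshold in TG against T10-L1 DRG, and of B2m, in the 16 libraries, as CPM + 1 on a log axis with a line at the mean of each ganglion. Xaf1, Ifi35, Psmb8, Psme1 and B2m have their highest mean in TG, where Ifih1, Tbk1 and Gbp9 have their lowest.

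In TG against L3-L5 DRG no pathway gene passed the adjusted threshold with edgeR, nor did any of all 12900 genes tested, and DESeq2 called 17 (11.3% of all genes). At an unadjusted p under 0.05 there were 21 of 100, 15 of them higher in TG, where 18.2% of all genes passed (10.1% higher in TG and 8.02% in L3-L5 DRG). Of the 15, 8 belonged to class I antigen presentation, the display of cell peptides to T cells: B2m, H2-D1, H2-K1, Psmb8, Psmb9, Psmb10, Psme1 and Psme2. The median log2 fold change of the 12 genes of that list was 1.44 for TG against L3-L5 DRG and 0.93 for TG against T10-L1 DRG, beside -0.03 for all genes tested in both. B2m, the light chain of class I molecules, averaged 5724 ± 2322 CPM in TG, 2635 ± 1116 in NG/JG, 2563 ± 744 in T10-L1 DRG and 1445 ± 880 in L3-L5 DRG (SD, n = 4). Over the 4 ganglia together, 2 of 110 pathway genes passed the adjusted threshold, Xaf1 (adjusted p = 0.0218) and B2m (adjusted p = 0.0327), 1.82% beside 3.01% of all 14236 genes (12.7% with DESeq2, which called 11 pathway genes). An unadjusted p under 0.05 was found for 27, beside 17.5% of all genes. Both calls were lost without TG library 2, 3 or 4, and that of B2m also without L3-L5 DRG library 2 or T10-L1 DRG library 1, 2 or 3, so that it was kept in 9 of 16 such fits and that of Xaf1 in 13. B2m had r = 0.61 with the macrophage list, 0.51 with the fibroblast list and -0.59 with the sensory neuron list. In the same order, r was 0.60, 0.78 and -0.34 with the mean of each ganglion taken out, and rho was 0.64, 0.19 and -0.46. Without the 2 libraries farthest from the median of each list, r was 0.47, 0.11 and -0.16. The part of these cells was not tested.

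In NG/JG against L3-L5 DRG no pathway gene, and none of all 12240 genes, passed the adjusted threshold with edgeR, and DESeq2 called 4, 1 higher in NG/JG and 3 in L3-L5 DRG (5.66% of all genes). At an unadjusted p under 0.05 there were 9 of 90, all higher in NG/JG, where 2.35% of all genes were higher in NG/JG (6.04% in either direction). With DESeq2 at an unadjusted p under 0.05 there were 17, of which 10 were higher in NG/JG and 7 in L3-L5 DRG. No share of all genes is given for that count, and nothing about the pathway is read from it. Irgm2, the gene of a GTPase of the same family as Irgm1, had 216, 267, 154 and 271 CPM in NG/JG against 65.2, 40.3, 36.8 and 79.0 CPM in L3-L5 DRG, without overlap (log2 fold change 2.19, standard error 0.43, adjusted p = 0.168 with edgeR and 0.00072 with DESeq2). Socs3, which encodes a feedback inhibitor of JAK-STAT signalling, averaged 1647 ± 957 against 451 ± 263 CPM (adjusted p = 0.247; SD, n = 4). The others were Parp9, Igtp, Tap1, Gbp3, Jak1, Myd88 and Ifitm3. The filter left untested some genes with at most 1 count in every NG/JG library, and these went the other way. L3-L5 DRG was at least 16.1-fold higher for Mx1, 15.3-fold for Ifitm1, 14.1-fold for Oas3 and 13.9-fold for Isg20. It was at least 11.2-fold higher for Ifi44, 10.5-fold for Oas1b, 4.35-fold for Cxcl9 and 1.57-fold for Ifnb1. The bound for Cxcl9 rested on L3-L5 DRG library 1 and that for Ifnb1 on library 4. The 12 tested genes of the list of interferon gamma GTPases and chemokines had a median log2 fold change of 2.01 for NG/JG against L3-L5 DRG, 1.38 against T10-L1 DRG and -1.74 for TG against NG/JG, beside medians between -0.05 and 0.03 for all genes tested. The comparisons share the NG/JG libraries.

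In TG against NG/JG no pathway gene of 95 passed the adjusted threshold with edgeR, where 0.051% of all 11769 genes did, and DESeq2 called 7 (6.35% of all genes). At an unadjusted p under 0.05 there were 14 (10% of all genes), of which 10 were higher in NG/JG (4.49% of all genes) and 4 in TG (5.54% of all genes). Those higher in NG/JG included Igtp, Parp9, Jak1, Socs3, Irgm2 and Stat2. Those higher in TG were B2m, Ifitm2, Isg20 and Cxcl9, the gene of another chemokine for CXCR3. Cxcl9 had 0 counts in all NG/JG libraries and 10.2, 10.8, 2.41 and 23.5 CPM in TG, at least 31.6-fold higher, and Isg20 had at most 1 count in NG/JG and was at least 38.8-fold higher in TG. Cxcl10 and Cxcl9 were thus unlike each other in NG/JG, where Cxcl10 had 134 to 715 CPM. Ifitm1, with at most 1 count in NG/JG, was left untested by the filter and was at least 39.0-fold higher in TG.

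In L3-L5 DRG against T10-L1 DRG no pathway gene of 107, and none of all 13550 genes, passed the adjusted threshold with edgeR, and DESeq2 called 0 pathway genes (0.499% of all genes). At an unadjusted p under 0.05 there were 6, all higher in T10-L1 DRG, where 2.72% of all genes were (6.07% in either direction). They were Socs3 (log2 fold change -1.76), Myd88, the adaptor gene of Toll-like receptors (-1.72), Parp9 (-1.28), Irgm2 (-1.25), Igtp (-1.36) and Ifih1 (-0.82), each with an adjusted p of 0.785. In NG/JG against T10-L1 DRG, 0 of 101 passed the adjusted threshold, where 0.0322% of all 12430 genes did, and DESeq2 called 5 (6.13% of all genes). Those with an unadjusted p under 0.05 were 2, both higher in T10-L1 DRG (4.06% of all genes, 5.91% in either direction), Dhx58 and Ifitm1, and Ifitm1 had at most 1 count in NG/JG while T10-L1 DRG was at least 21.0-fold higher. The filter left untested some other genes with at most 1 count in every NG/JG library. T10-L1 DRG was at least 26.4-fold higher for Oas1b, 24.3-fold for Isg20, 20.3-fold for Mx1 and 12.5-fold for Cxcl9. For Oas3 and Ifi44 it was at least 8.08-fold and 5.49-fold higher, and for Ifnb1 2.28-fold. The bounds for Cxcl9 and Ifnb1 rested on T10-L1 DRG library 4. Ikbke went the other way, with 0 counts in T10-L1 DRG and NG/JG at least 1.22-fold higher.

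**Figure D5:**
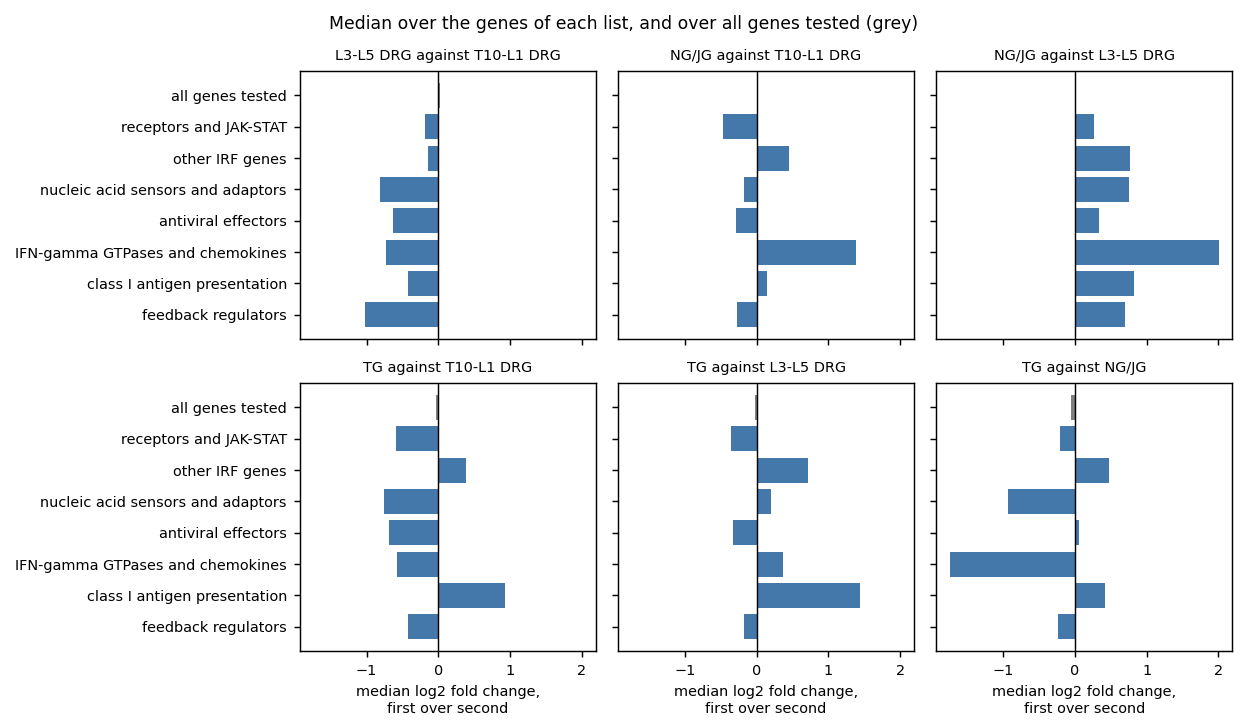
Median log2 fold change of the tested genes of each pathway list in the 6 pairs of ganglia, first over second, with the median of all genes tested in grey. The list of interferon gamma GTPases and chemokines reaches 2.01 for NG/JG against L3-L5 DRG, and class I antigen presentation reaches 1.44 for TG against L3-L5 DRG.

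Socs3 and Irgm2 also followed the immediate-early list over the 16 libraries, with r = 0.84 and 0.80 (0.82 and 0.69 with the mean of each ganglion taken out). Xaf1 had r = 0.23 and Igtp r = 0.60 with that list (0.19 and 0.15 with the mean of each ganglion taken out). Socs3 in TG library 1, with its high immediate-early sum, had 870.0 CPM against 117 to 161 CPM in the other 3. The part of this list in the pathway comparisons was not tested.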

How the data were processed

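SMART-seq2 libraries of sorted cells were sequenced with single reads. The authors aligned the reads to mm9 with TopHat2 at default settings and deposited raw counts per gene symbol from HTSeq-count; the annotation, strand setting and versions are not given in the sources used here. Groups were taken from the sample labels. The 9 genes and all lists were chosen with earlier results of these data known.

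Rows that name no gene (no feature, ambiguous, not unique) were left out of library sizes; no-feature reads were 29.6% to 66.6% of the uniquely placed reads. CPM and RPKM were computed from the deposited counts, with exon lengths of GENCODE M1 on mm9, and log2 levels used a pseudocount of 1 CPM. Pairs of ganglia (8 libraries each) and the 4 ganglia together were fitted on all genes with edgeR 4.0.16 in R 4.3.3 (TMM, filterByExpr, quasi-likelihood test, two-sided, Benjamini-Hochberg adjustment, threshold 0.05). The fits were tested on simulated data. Alternatives were DESeq2 1.42.0, RLE scaling, no filter on low counts, a replicate block, all libraries in one fit and leaving out each library. No 2 libraries of the same ganglion agreed within sampling noise. With 4735624 to 13333318 reads on genes, 3 counts, taken as the limit for a count of 0, stand for 0.225 to 0.633 CPM, which covers counting error only.

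Named were the 9 genes, all receptor, JAK-STAT and regulatory factor genes, the up to 10 other pathway genes per pair and direction with the lowest unadjusted p under 0.05, the 5 genes of at least 5 CPM most like the mean of the 9, and marker genes. Some genes of the lists are not reported here. Values of single libraries used Python 3.11.15, pandas 2.3.3, numpy 2.4.6 and matplotlib 3.10.9. Promoter sequences are from RefSeq.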

Additional observations from a re-analysis of the deposited data

Results flagged for a closer look

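In groups of 4 libraries, a library was marked where its gap to the nearest other, divided by the range of the group, exceeded Dixon's 95% critical value for 4 values. This marked 22 of 156 groups of a gene in a ganglion. Chance marks about 1 in 20 for independent, normally distributed values, which these are not. The genes share libraries, and any level beside 3 zeros is marked, so no excess is read from the count. Among the 9 interferon response genes there were 6. NG/JG library 4 stood above the other 3 for Irf7 (185 CPM against 0.28 to 17.4), Ifit1 (482 against 129 to 182) and Isg15 (89.7 against 26.6 to 31.4). T10-L1 DRG library 3 had 774 CPM of Irgm1 against 129 to 227, T10-L1 DRG library 4 had 161 CPM of Irf5 against 1.68 to 28.2, and TG library 1 had 184 CPM of Gbp2 against 12.1 to 26.0.

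TG library 1 was also high for Socs3 (870.0 CPM against 117 to 161), Irgm2 (127 against 19.3 to 31.3), Jak2 (54.8 against 3.93 to 10.2) and Irf9 (73.6 against 13.6 to 19.7), and low for Psmb8 (119 against 301 to 318). T10-L1 DRG library 4 was high for B2m (3671 CPM against 2122 to 2323), Gbp9 (24.8 against 5.71 to 8.87), Cxcl9 (17.5 against 0 to 1.07), Ifngr1 (594 against 116 to 150) and Irf2 (33.5 against 18.2 to 20.4), and T10-L1 DRG library 2 was low for Tbk1 (30.4 against 60.8 to 62.4). L3-L5 DRG library 1 was high for Cxcl9 (6.03 CPM) and Irf4 (8.07 CPM), each against 0 to 0.422. Low levels marked for a few counts were Dhx58 (0.696 CPM) and Irf4 (2.50 CPM) in NG/JG library 1 and Il28ra (0.845 CPM) in L3-L5 DRG library 4, with the other 3 at 0.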

How the results depend on the processing

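The mean levels of the 9 genes moved by less than 1 SD under TMM scaling (36 of 36), and by more in 6 of 36 with reads outside genes in the denominator. Without 1 library, 17 of 144 means moved by over 1.5 times. Counts of pathway genes depended on the tool. With DESeq2 the adjusted count went from 0 to 5 for NG/JG against T10-L1 DRG, 0 to 4 for NG/JG against L3-L5 DRG, 7 to 20 for TG against T10-L1 DRG, 0 to 17 for TG against L3-L5 DRG, 0 to 7 for TG against NG/JG and 2 to 11 for the 4 ganglia. The unadjusted count went from 6 to 12 for L3-L5 DRG against T10-L1 DRG, 2 to 9 for NG/JG against T10-L1 DRG, 9 to 17 for NG/JG against L3-L5 DRG and 14 to 22 for TG against NG/JG. Without a filter the unadjusted counts were 7 and 18 for NG/JG against T10-L1 DRG and L3-L5 DRG, and the adjusted count was 3 for TG against T10-L1 DRG. With all libraries in one fit the adjusted counts were 0, 2 and 4 for TG against T10-L1 DRG, L3-L5 DRG and NG/JG, and the unadjusted counts were 10 and 24 for NG/JG against T10-L1 DRG and L3-L5 DRG, and 16 and 27 for TG against T10-L1 DRG and NG/JG. The cause was not tested. Counts without a filter, in one fit, or unadjusted with DESeq2 have no share of all genes beside them. Nothing about the pathway is read from those counts.

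Without each library in turn, the adjusted and unadjusted counts ranged from 0 to 0 and 2 to 25 for L3-L5 DRG against T10-L1 DRG, 0 to 0 and 1 to 15 for NG/JG against T10-L1 DRG, 0 to 0 and 6 to 18 for NG/JG against L3-L5 DRG, 0 to 30 and 23 to 40 for TG against T10-L1 DRG, 0 to 19 and 18 to 32 for TG against L3-L5 DRG, 0 to 3 and 10 to 21 for TG against NG/JG, and 0 to 8 and 18 to 37 for the 4 ganglia. In the 3 pairs with TG and over the 4 ganglia, the highest adjusted count came without TG library 1. The shares of all genes in these fits are not given, so the ranges show only dependence on single libraries.

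Libraries with the same replicate number did not deviate together in every pair (lowest r -0.12), though in NG/JG and L3-L5 DRG each library correlated best with its own number, 4 of 4. With the replicate block, the adjusted count was 0 for TG against T10-L1 DRG and 1 for the 4 ganglia, and the unadjusted counts were 9, 3, 9, 28, 23, 14 and 25 in the order of the ranges above. These too have no share of all genes beside them. The block moved the median log2 fold change of all genes by -0.58 for NG/JG against T10-L1 DRG, -0.50 for NG/JG against L3-L5 DRG and 0.38 for TG against NG/JG, and leaving out the filter moved it by -0.21, -0.20 and -0.12 for TG against T10-L1 DRG, L3-L5 DRG and NG/JG. Levels under 0.225 to 0.633 CPM were below what the depth could show.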
